A study of Mus musculus with 7 samples.

Results

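The genes described here encode 5 proteins that bind the integrase binding domain (IBD): *Med1*, *Dbf4*, *Iws1*, *Pogz* and *Cdca7l*. They were chosen by name, not by their values, although earlier results of these data were known. All 5 were found among the 25033 gene symbols of the count files. All 5 also passed the filter on low counts, which kept 11265 genes. HRP-2 and LEDGF/p75 are paralogs that read methylated histone H3 with an N-terminal PWWP domain and hold other proteins on chromatin with a C-terminal IBD. The IBD is a small helical bundle first known for binding the integrase of HIV. Cellular proteins reach it through a short unstructured motif, and MLL uses the same surface, which is why the domain has been studied in leukemia and in blood-forming cells. The paper lists the proteins of all 5 genes as binding the IBD of LEDGF/p75. As partners of HRP-2 it names those of *Pogz*, *Cdca7l* and *Iws1*, but not those of *Med1* and *Dbf4*.

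RNA came from lineage depleted (lin-) bone marrow cells, the cells left once those carrying markers of mature blood lineages are removed. The donors were 3 wild type (*HRP-2*+/+, WT) and 4 knockout (*HRP-2*-/-, KO) mice aged 6 to 8 weeks. The knockout was systemic, carried the tm1b allele of the gene then named *Hdgfrp2* on a C57BL/6N background, and therefore also removed HRP-2 from the cells that surround blood progenitors. No treatment was given to either genotype. The libraries read the 3′ end of polyadenylated transcripts, 1 fragment per transcript, so that CPM (the reads of a gene scaled to the size of its library) compare transcript numbers between genes without a correction for length.

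Of the 5 members, 4 share a stretch of coding sequence that could be read from the annotation. The published IBD-binding motif runs acidic residue, any, acidic, any, Phe, any, Gly, Phe. Its codons were searched in frame, on the coding strand only, in the longest coding sequence of 21426 genes of GENCODE M21 on GRCm38, and 12 genes, or 0.056%, held them. *Cdca7l*, *Pogz*, *Iws1* and *Med1* were among the 12, as was *Kmt2a*, which encodes MLL, while *Dbf4* was not. *Cdca7l* held 2 matches, which started at codons 22 and 78 of 438 and lay in exons 2 and 3 at chr12:117865069-117865092 and chr12:117870078-117870101 on the plus strand. The match of *Pogz* started at codon 1392 of 1409, in the last of its 19 exons, at chr3:94880276-94880299 on the plus strand. That of *Med1* started at codon 891 of 1575, in the last of 17 exons, at chr11:98157275-98157298 on the minus strand. The match of *Kmt2a* started at codon 142 of 3966 and was split between exons 1 and 2. That of *Iws1* started at codon 431 of 766, was split between exons 5 and 6 and is not printed here. *Dbf4* held the shorter pattern of Phe, any, Gly, Phe at 2 places, which 5.35% of the genes searched also held. Both lay in its last exon, 12, on the minus strand, at chr5:8397340-8397363 and chr5:8397220-8397243, and the latter ended with the last codon, 663. Each stretch below spans 8 codons read 5′ to 3′ from GENCODE M21 transcripts, with the 4 codons of Phe, any, Gly, Phe in capitals. They are shown to set the stretches that hold the full pattern beside those of *Dbf4*, which hold the shorter one.
Cdca7l, first match: gacgatgaagagTTTGTGGGTTTC
Cdca7l, second match: gaaatggaagatTTTGAAGGATTT
Pogz: gagacggagtctTTCTATGGCTTT
Med1: gataatgatgatTTCAAAGGATTT
Kmt2a: gaggatgagcagTTCTTAGGTTTT
Dbf4, shorter pattern: gagaaatcagaaTTTTTGGGTTTT
Dbf4, shorter pattern at the C-terminus: tcaacttctgcaTTCGTTGGATTT
In the first *Dbf4* stretch the first of the 4 codons before the capitals was acidic and the third was not, and in the C-terminal stretch neither was acidic. A match to these letters is a description of the sequence and not a binding site.

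The libraries held from 3525665 to 5605158 reads on genes, so that 3 reads, taken as the floor, stood for 0.561 to 0.840 CPM (counting error only). Every member lay far above this floor in every mouse. Transcripts of the progenitor markers fixed for the check, among them *Kit*, *Cd34* and *Mpo*, summed to between 8463 and 11766 CPM. The 6 B lineage markers summed to at most 250.9 CPM, and the 8 T and NK cell markers to between 461 and 508 CPM in WT and between 389 and 518 CPM in KO mice. The hemoglobin genes *Hba-a1*, *Hbb-bs* and *Hbb-bt* were at 0 in all mice. Mature neutrophil markers summed to between 1972 and 3085 CPM in WT mice and between 1991 and 8238 CPM in KO mice, with all 8 of them higher in KO mice on average. Eosinophil, basophil and mast cell markers summed to between 2498 and 2609 CPM in WT and between 1731 and 2328 CPM in KO mice, 6 of 6 lower, and macrophage markers to between 426 and 446 CPM and between 316 and 385 CPM, 6 of 7 lower. No gene of these lists was called. KO replicate 3 held the highest neutrophil sum and by far the most reads of Y-linked genes (559 of *Ddx3y*, 104 CPM, against at most 4 in any other mouse), with almost none of *Xist* (0.561 CPM against at least 229 CPM elsewhere). By these reads KO replicate 3 was male and every other mouse, WT or KO, was female, although the labels give no sex. KO replicate 4 held the highest sums of megakaryocyte markers (858 CPM against at most 351 CPM elsewhere) and of stromal and endothelial markers (551 CPM against at most 121 CPM). *Col1a1* alone gave 518 CPM of the latter sum. In the same mouse *Cdh5* (7.97 CPM), *Kdr* (5.98 CPM) and *Cxcl12* (18.9 CPM) lay within the range of the other mice. The ribosomal RNA precursor *Rn45s* took 20.6% of the reads in WT replicate 2 and 18.6% in KO replicate 4, but 4.94% in KO replicate 1. These facts are set beside the members below, and their part in any result was not tested unless a value is given.

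Reads of *Hdgfl2*, the gene of HRP-2, fell in the knockout, and those of its paralog were not called different. *Hdgfl2* stood at 50.0, 43.7 and 44.6 CPM in WT replicates 1 to 3 and at 2.53, 0.623, 1.49 and 0.498 CPM in KO replicates 1 to 4. No KO mouse came near a WT mouse. The log2 fold change, KO minus WT, was -5.09 (standard error 0.34, Benjamini-Hochberg adjusted p = 1.38e-07 over all genes by the quasi-likelihood test in edgeR). *Psip1* encodes LEDGF/p75 and also the splice variant p52, which lacks the IBD, and its reads were counted for the gene as a whole. It stood at 90.8 ± 7.82 CPM (SD, n = 3) in WT and 94.6 ± 12.2 CPM (SD, n = 4) in KO mice, and the groups overlapped. Its log2 fold change was 0.059, with a 95% interval from -0.26 to 0.37. The question here is whether transcripts of the proteins that bind the IBD differed between these mice.

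None of the 5 partner genes was called different between the genotypes. A gene counted as called at an adjusted p under 0.25, the threshold of the study's own expression analysis, which used DESeq2. By edgeR 2 of the 11265 genes tested, 0.0178%, were called, with *Hdgfl2* among them. At 0.05 the share by edgeR was again 0.0178%. DESeq2 called 21 genes at 0.25. None of the 5 was called by DESeq2, limma-voom or the likelihood ratio test of edgeR. None of the 5 reached an unadjusted p under 0.05 either, a level that 3.63% of all genes reached. The CPM values of the genotypes overlapped for each of the 5, whereas 5.16% of all genes had no overlap (2.37% with all KO above all WT mice and 2.79% with all KO below). Log2 fold changes ran from -0.22 for *Iws1* to 0.020 for *Cdca7l*, 4 of them below 0 and 1 above, with a median of -0.12 against -0.0014 over all genes tested. The adjusted p was 0.999 for each of the 5 in edgeR, and over the alternative fits it lay between 0.949 and 1.00. The 95% intervals of the fold, KO over WT, reached from 0.660 at the lowest to 1.48 at the highest among the 5. In these bulk libraries, fewer cells of a type and less RNA per cell cannot be told apart.

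**Figure D1:**
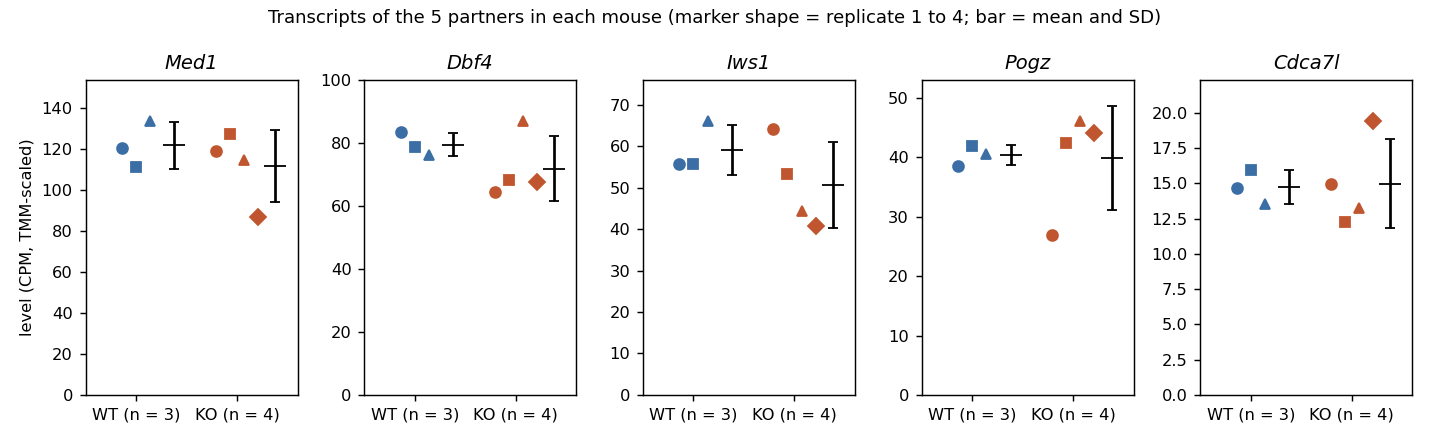
Level of each partner gene in each mouse, in CPM on a linear axis that starts at 0, for 3 WT (blue) and 4 KO (orange) mice, with marker shape giving the replicate number and the black bar the mean and SD. The genotypes overlap in all 5 panels, and single KO mice stand low for *Med1* (86.7 CPM) and *Pogz* (27.0 CPM) and high for *Dbf4* (87.1 CPM) and *Cdca7l* (19.4 CPM).

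*Med1* (ENSMUSG00000018160.15, GRCm38 chr11:98152154-98193293, minus strand) encodes the Mediator subunit that contacts nuclear receptors and GATA factors and so connects them to RNA polymerase II. It was the most abundant of the 5 transcripts in every mouse. WT replicates 1 to 3 held 120.2, 111 and 134 CPM. KO replicates 1 to 4 held 119, 127, 114 and 86.7 CPM. Replicate 4 was the low KO mouse, and the other KO mice lay within the WT range. That replicate was the KO library with the most *Rn45s* (18.6%) and the highest megakaryocyte sum (858 CPM). Its stromal and endothelial sum (551 CPM) was also the highest, with 518 CPM of it from *Col1a1*. The means were 121.7 ± 11.3 CPM (SD, n = 3) and 111.8 ± 17.6 CPM (SD, n = 4), and the log2 fold change was -0.12 (standard error 0.15, 95% interval -0.44 to 0.20, unadjusted p = 0.433 in edgeR). Without KO replicate 4 it was -0.019, and when each library's *Rn45s* share entered the model it was -0.19 (standard error 0.13).

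*Dbf4* (ENSMUSG00000002297.16, GRCm38 chr5:8396973-8422716, minus strand) encodes the regulatory subunit, also called ASK, that switches on the kinase CDC7 at replication origins. WT replicates 1 to 3 held 83.6, 78.7 and 76.3 CPM. KO replicates 1 to 4 held 64.5, 68.4, 87.1 and 67.5 CPM. Of the KO mice, 3 lay below every WT mouse, and replicate 3, the mouse with the most Y-linked reads and neutrophil transcripts, lay above every WT mouse. The means were 79.5 ± 3.73 CPM (SD, n = 3) and 71.9 ± 10.3 CPM (SD, n = 4). The log2 fold change was -0.15 with all mice (standard error 0.15, 95% interval -0.47 to 0.18, unadjusted p = 0.356 in edgeR). Without KO replicate 3 it was -0.25 (standard error 0.15, unadjusted p = 0.121 in edgeR), which again was not called.

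*Iws1* (ENSMUSG00000024384.4, GRCm38 chr18:32067741-32104328, plus strand) encodes an elongation factor that travels with the histone chaperone SPT6 on RNA polymerase II and helps to bring the H3K36 methyltransferase SETD2 to transcribed genes. WT replicates 1 to 3 held 55.7, 55.7 and 66.2 CPM. KO replicates 1 to 4 held 64.1, 53.4, 44.5 and 40.9 CPM. The lower KO mice, replicates 2 to 4, lay below every WT mouse, and replicate 1 lay within the WT range. The lowest was replicate 4, with the high *Rn45s*, megakaryocyte and *Col1a1* values given for *Med1*. The means were 59.2 ± 6.03 CPM (SD, n = 3) and 50.7 ± 10.4 CPM (SD, n = 4). Its log2 fold change of -0.22 was the largest in size among the 5 (standard error 0.18, 95% interval -0.60 to 0.16, unadjusted p = 0.236 in edgeR), and 64.5% of all genes tested had a log2 fold change no larger in size. The value moved with single mice, from -0.35 without KO replicate 1 to -0.13 without KO replicate 4. When each library's *Rn45s* share entered the model, it was -0.32 (standard error 0.16, unadjusted p = 0.0580 in edgeR), and the gene was called in no fit.

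*Pogz* (ENSMUSG00000038902.14, GRCm38 chr3:94837567-94882326, plus strand) encodes a zinc finger protein with a transposase-derived domain that binds the heterochromatin protein HP1 and acts in chromosome segregation. WT replicates 1 to 3 held 38.6, 42.0 and 40.7 CPM, a narrow range. KO replicates 1 to 4 held 27.0, 42.4, 46.2 and 44.1 CPM. Thus KO replicate 1, the library with the least *Rn45s*, lay below every WT mouse, and the other KO mice lay above every WT mouse. The means were 40.4 ± 1.71 CPM (SD, n = 3) and 39.9 ± 8.74 CPM (SD, n = 4), and the log2 fold change was -0.019 (standard error 0.20, 95% interval -0.44 to 0.40, unadjusted p = 0.927 in edgeR). Without KO replicate 1 it was 0.13 (standard error 0.18, unadjusted p = 0.460 in edgeR), and with the *Rn45s* share in the model it was 0.038 (standard error 0.19).

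*Cdca7l* (ENSMUSG00000021175.15, GRCm38 chr12:117804289-117878706, plus strand) encodes JPO2, a nuclear protein that binds MYC. It was the least abundant of the 5 in every mouse. WT replicates 1 to 3 held 14.7, 16.0 and 13.6 CPM, from 67, 57 and 51 reads. KO replicates 1 to 4 held 15.0, 12.3, 13.3 and 19.4 CPM, from 77, 59, 71 and 78 reads. Replicate 4, with the high *Rn45s*, megakaryocyte and *Col1a1* values given for *Med1*, was the high KO mouse, and replicates 2 and 3 lay below the WT mice. The means were 14.7 ± 1.21 CPM (SD, n = 3) and 15.0 ± 3.17 CPM (SD, n = 4), with a log2 fold change of 0.020 (standard error 0.26, 95% interval -0.52 to 0.56, unadjusted p = 0.940 in edgeR). Without KO replicate 4 it was -0.13, and with the *Rn45s* share in the model it was 0.076 (standard error 0.26). Of the last 500 bases of its longest coding transcript, where a 3′ end library reads, 417 are also exonic in genes annotated on the other strand, and which strand was counted is not stated. *Dnah11*, the overlapping gene that the files list, held 2 reads over all 7 mice. *Pogz*, *Iws1*, *Med1* and *Dbf4* share no exonic base with another annotated gene.

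**Figure D2:**
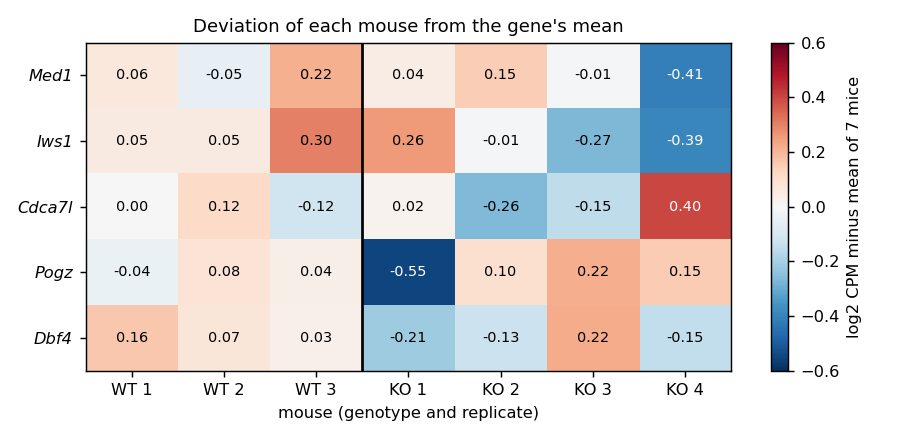
Difference of each mouse's log2 CPM from the mean of the 7 mice for each partner gene, with WT mice left and KO mice right of the line and the value printed in each cell. KO replicate 4 is lowest for *Med1* (-0.41) and *Iws1* (-0.39) and highest for *Cdca7l* (0.40), and KO replicate 1 is lowest for *Pogz* (-0.55).

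Within a mouse the 5 genes did not move as 1 unit. KO replicate 4 held the lowest *Med1* and *Iws1* and the highest *Cdca7l*, and WT replicate 3 held the highest *Med1* and *Iws1*. KO replicate 1 held the lowest *Pogz* and *Dbf4*, and KO replicate 3 held the highest of both. The highest mouse exceeded the lowest by 1.35-fold for *Dbf4*, 1.54-fold for *Med1*, 1.59-fold for *Cdca7l*, 1.62-fold for *Iws1* and 1.71-fold for *Pogz*. The SD over 7 mice was 2.35 CPM for *Cdca7l* and 15.0 CPM for *Med1*. The order of levels was *Med1*, *Dbf4*, *Iws1*, *Pogz* and *Cdca7l*. *Med1* lay above *Dbf4* in 7 of 7 mice, by a median of 1.44-fold, and *Dbf4* above *Iws1* in 7 of 7, although by only 1.01-fold in the closest mouse. *Iws1* and *Pogz* were not in a fixed order, since *Iws1* was higher in 5 of 7 mice. *Pogz* lay above *Cdca7l* in 7 of 7 mice, by a median of 2.63-fold. Against all genes tested, the mean level of *Med1* was at the 85.7th percentile and that of *Cdca7l* at the 33.3rd.

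Summed over the 5 genes, partner transcripts stood at 313, 304 and 330.3 CPM in WT replicates 1 to 3 and at 289, 304, 305 and 259 CPM in KO replicates 1 to 4. The means were 315.5 ± 13.6 CPM (SD, n = 3) and 289.3 ± 21.7 CPM (SD, n = 4), and the groups overlapped. Reads of the genes *Psip1* and *Hdgfl2* together, with those of p52 included, stood at 136.9 ± 4.60 CPM (SD, n = 3) in WT and 95.8 ± 11.3 CPM (SD, n = 4) in KO mice. The sum of the 5 partner genes divided by the sum of this gene pair lay between 2.14 and 2.42 in WT and between 2.50 and 3.63 in KO mice. These ratios are a description, since *Hdgfl2*, the targeted gene, is part of their denominator.

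**Figure D3:**
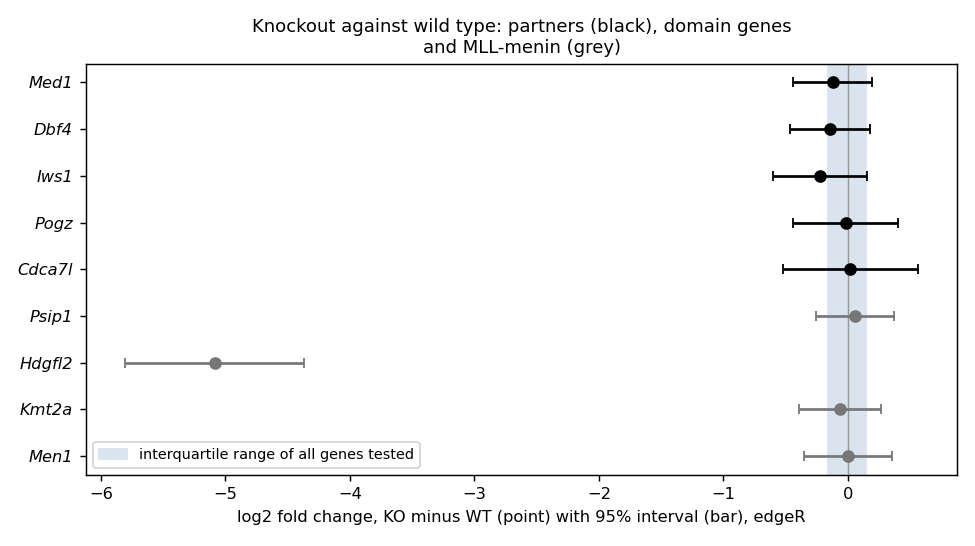
Log2 fold change, KO minus WT, of the 5 partner genes (black) and of *Psip1*, *Hdgfl2*, *Kmt2a* and *Men1* (grey), as a point with its 95% interval from edgeR's fit of 3 WT and 4 KO mice, over the middle 50% of all genes tested (blue band, -0.16 to 0.14). Every interval but that of *Hdgfl2*, at -5.09, includes 0.

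The other route to the IBD, through MLL and menin, was not called different either. *Kmt2a* stood at 132.5 ± 6.17 CPM (SD, n = 3) in WT and 126.5 ± 27.0 CPM (SD, n = 4) in KO mice, with a log2 fold change of -0.065 (95% interval -0.39 to 0.26). *Men1*, which encodes menin, had 61.1 CPM in both genotypes (SD 12.3 with n = 3 in WT and 3.70 with n = 4 in KO mice), and its 95% interval ran from -0.35 to 0.35. Beyond *Kmt2a* and the members, 7 genes held the full motif pattern. *Kmt2b*, the closest paralog of *Kmt2a* and also a menin-bound methyltransferase gene, stood at 35.0 ± 4.59 CPM (SD, n = 3) in WT and 40.9 ± 4.46 CPM (SD, n = 4) in KO mice, a log2 fold change of 0.22 (standard error 0.18). The others were *Abca1*, *Ccdc91*, *Eif4h*, *Prkcd*, *Psmd5* and *Syne1*, with log2 fold changes from -0.43 for *Abca1* to 0.21 for *Syne1*. None of the 12 was called, and the genotypes overlapped for each of them.

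**Figure D4:**
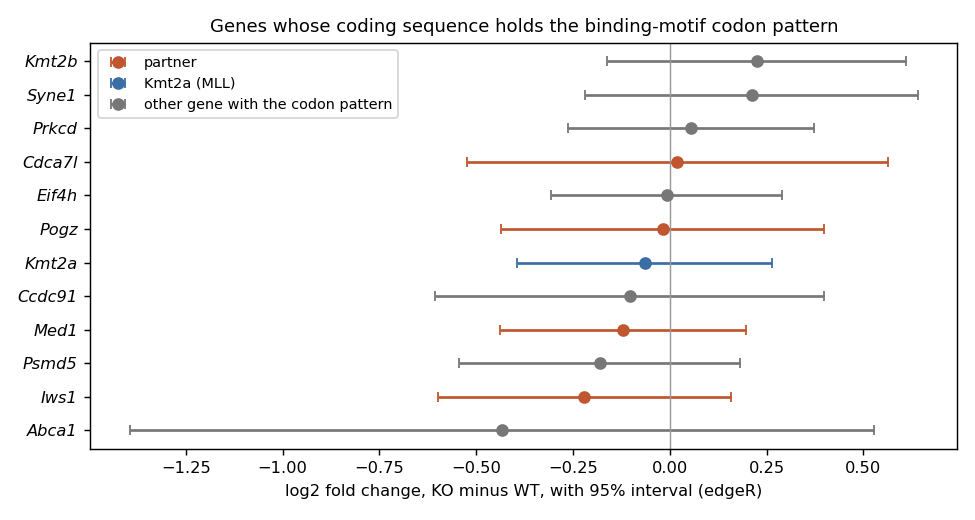
Log2 fold change, KO minus WT, with its 95% interval from edgeR's fit for the 12 genes whose longest coding sequence holds the codons of the binding motif: 4 partner genes (orange), *Kmt2a* (blue) and 7 others (grey). Every interval includes 0, and that of *Abca1*, the gene with the fewest reads, is the widest.

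The pathways in which the partners act were compared through lists of 14 to 32 genes, 105 in all and 103 tested. None of the 103 was called, with adjusted p at or above 0.999 for each in edgeR, and the median log2 fold change was 0.015 against -0.0014 over all genes. An unadjusted p under 0.05 was found for 2 of them, 1.94%, against 3.63% of all genes. The genotypes did not overlap for 7, or 6.80%, against 5.16% of all genes. Both shares are near the background.

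Among the other subunits of Mediator, the complex of *Med1*, 15 were higher and 17 lower in KO mice, with a median log2 fold change of -0.029. *Med22*, a subunit of the head module, had the smallest p of the list. It stood at 36.6, 31.6 and 28.7 CPM in WT and at 20.4, 22.9, 22.2 and 24.9 CPM in KO mice, all 4 below all 3. Its log2 fold change was -0.52 (standard error 0.20, unadjusted p = 0.0170, adjusted p = 0.999 in edgeR). *Med31* had the lowest value, -0.55 (standard error 0.31), and *Cdk8*, the kinase of the dissociable module, the highest, 0.44 (standard error 0.29). The subunits *Med12*, *Med14* and *Med24* had log2 fold changes of -0.16, -0.19 and -0.35, with standard errors of 0.15, 0.21 and 0.22. Genotypes without overlap were found for 2 of the 32 subunits, *Med11* and *Med22*.

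For *Dbf4*, 28 of 29 genes of origin licensing and firing were tested, and 14 were higher and 14 lower in KO mice, with a median log2 fold change of -0.0015. *Cdc7*, the kinase that *Dbf4* activates, stood at 50.0 ± 6.42 CPM (SD, n = 3) in WT and 51.8 ± 8.04 CPM (SD, n = 4) in KO mice. *Dbf4* transcripts exceeded those of *Cdc7* in every mouse, by 1.38-fold to 1.90-fold in WT and by 1.02-fold to 1.70-fold in KO mice. *Tipin*, of the fork protection complex, had the smallest p of the list (log2 fold change 0.21, standard error 0.13, all 4 KO mice above all 3 WT mice). *Gins1* was highest at 0.28 (standard error 0.24) and *Ticrr* lowest at -0.29 (standard error 0.36). The 14 mitosis genes, listed as a measure of proliferation, summed to 2239 to 2443 CPM in WT and 2263 to 2417 CPM in KO mice, and none was called. Their log2 fold changes ran from -0.22 for *Ccnb2*, which had the smallest p, to 0.14 for *Cenpf*.

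For *Iws1*, 14 genes of SPT6, SETD2, the PAF complex and related elongation factors were tested, and 9 were higher and 5 lower, with a median log2 fold change of 0.066. *Supt6*, which encodes SPT6, stood at 46.3 ± 9.54 CPM (SD, n = 3) in WT and 55.0 ± 7.38 CPM (SD, n = 4) in KO mice (log2 fold change 0.24, standard error 0.18). *Iws1* transcripts numbered from 0.973 to 1.65 for each of *Supt6* in WT and from 0.704 to 1.11 in KO mice, ranges that overlap. *Ctr9*, the scaffold of the PAF complex, had the smallest p, with a log2 fold change of 0.32 (standard error 0.14, unadjusted p = 0.0429, adjusted p = 0.999 in edgeR). *Supt4a* was highest at 0.48 (standard error 0.37) and *Leo1* lowest at -0.22 (standard error 0.24).

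For *Pogz*, 15 of 16 genes of HP1, H3K9 methylation and the chromosomal passenger complex were tested, and 11 were higher and 4 lower, with a median log2 fold change of 0.062. *Adnp* did not pass the filter and held almost no reads. *Cbx5*, which encodes HP1α, stood at 238.5 ± 31.1 CPM (SD, n = 3) in WT and 253.0 ± 16.5 CPM (SD, n = 4) in KO mice. *Incenp*, the scaffold of the passenger complex, had the smallest p (log2 fold change 0.17, standard error 0.12), with all 4 KO mice above all 3 WT mice. *Cbx3* was highest at 0.20 (standard error 0.17) and *Suv39h2* lowest at -0.23 (standard error 0.37).

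For *Cdca7l*, 14 genes were tested: those of the MYC network, the paralog *Cdca7* with its chromatin partners, and *Maoa*. Of the 14, 7 were higher and 7 lower, with a median log2 fold change of -0.014. *Cdca7* stood at 133.3 ± 29.0 CPM (SD, n = 3) in WT and 127.9 ± 17.4 CPM (SD, n = 4) in KO mice. *Cdca7l* had between 0.0885 and 0.160 transcripts for each of *Cdca7* in WT and between 0.0893 and 0.169 in KO mice. The log2 fold change of *Myc* was -0.20 (standard error 0.21). *Dnmt1*, the maintenance DNA methyltransferase, had the smallest p (log2 fold change 0.22, standard error 0.15). *Mxi1* was highest at 0.25 (standard error 0.18), with all KO mice above all WT mice, and *Mxd4* lowest at -0.33 (standard error 0.41).

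**Figure D5:**
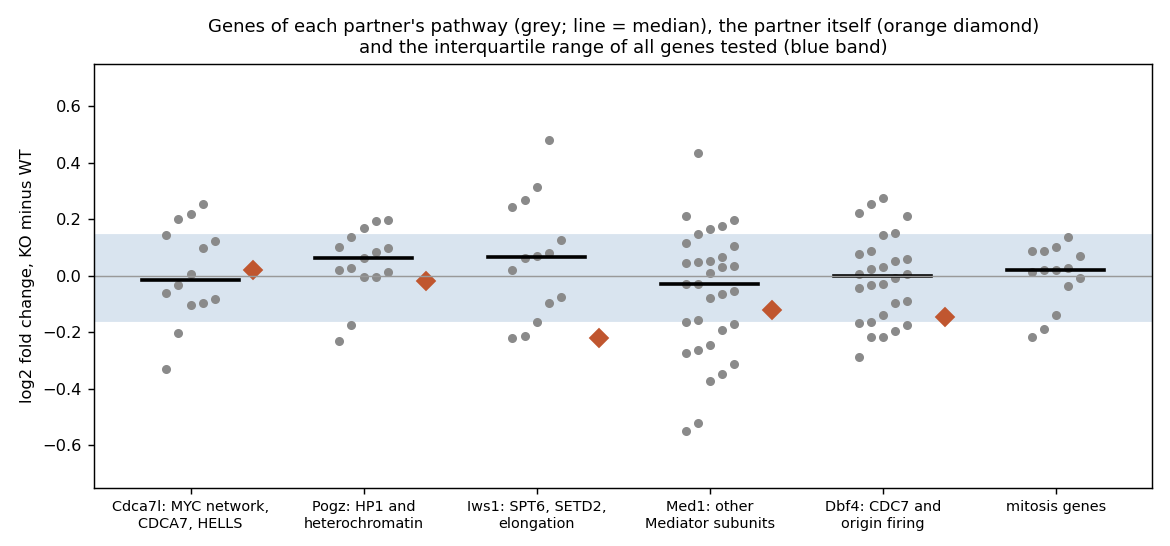
Log2 fold change, KO minus WT, of each tested gene in the list of each partner's pathway and of the mitosis genes (grey points, with the median as a black line), the partner gene itself (orange diamond) and the middle 50% of all genes tested (blue band). List medians lie between -0.029 and 0.066, and single genes reach from -0.55 (*Med31*) to 0.48 (*Supt4a*).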

How the data were processed

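Lin- bone marrow cells of 3 *HRP-2* wild type and 4 knockout mice were profiled by 3′ end RNA-seq. According to the methods, 75 bp single reads were aligned to GRCm38 with STAR, which also quantified genes on Ensembl annotation. The authors deposited whole-number counts of reads per gene symbol, not normalized, 1 file per mouse. Reads tallied as on no gene (27.0% to 31.6%) or ambiguous (1.99% to 2.40%), and the other tallies, were left out. The strand setting is not given in the sources used here.

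Counts were scaled with TMM factors, filtered with filterByExpr and compared between genotypes with the robust quasi-likelihood test of edgeR 4.0.16 in R 4.3.3, with Benjamini-Hochberg adjustment over all 11265 genes tested. CPM used the TMM-scaled library sizes. A standard error is the log2 fold change divided by the square root of F, and 95% intervals used the moderated degrees of freedom. The script was tested on simulated data. DESeq2 1.42.0, limma 3.58.1 (voom), edgeR's likelihood ratio test, other factors and filters, *Rn45s* handled in 2 ways, the replicate block and the omission of each mouse were alternatives.

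Replicate numbers come from the labels and name different animals. Correlations of the deviations of same-numbered mice were -0.025, -0.21 and -0.16, so the numbers were not used to pair mice. No pair of libraries of a genotype agreed within sampling noise. The paper speaks of knockout mice and their littermates, but which of the sequenced mice shared a litter is not stated. The p-values therefore measure the spread between these mice. The members and gene lists were chosen with earlier results of these data known. Named were the members, *Psip1*, *Hdgfl2*, *Kmt2a*, *Men1*, the best known partner of each member, *Med12*, *Med14* and *Med24*, in each list the genes with the smallest p and the highest and lowest fold change, for each member the 2 genes of at least 20 CPM most like it, and *Rn45s* and sex-linked genes. The motif genes, hemoglobin genes, *Col1a1*, *Cdh5*, *Kdr*, *Cxcl12*, *Maoa*, *Med11*, *Dnah11* and *Adnp* were named after their values were seen. Coordinates and coding sequences are those of GENCODE M21 (GRCm38).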

Additional observations from a re-analysis of the deposited data

Results flagged for a closer look

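Of 19 values examined for a KO mouse that stood apart from the other KO mice, 2 did, where chance gives about 1 in 20, or 0.95. *Dbf4* stood at 87.1 CPM in KO replicate 3, and the gap to the next mouse made up 0.8294 of the range of the KO mice, just over the limit used for 4 values. This mouse also had the most Y-linked reads and the highest sum of mature neutrophil markers. *Med24*, a Mediator subunit, stood at 17.1 CPM in KO replicate 1, against 29.6 to 31.0 CPM in the other KO mice.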

How the results depend on the processing

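The 5 members were called in none of 17 alternative fits, and neither was any gene of the pathway lists or the mitosis list. *Iws1*, *Med1* and *Dbf4* kept their direction in all 17, over ranges of -0.35 to -0.13, -0.19 to -0.016 and -0.25 to -0.094. *Cdca7l* turned negative with limma-voom (-0.013) and with the replicate block (-0.13), and *Pogz* turned positive with each library's *Rn45s* share in the model (0.038). Leaving out each mouse in turn gave from -0.13 to 0.10 for *Cdca7l* and from -0.098 to 0.13 for *Pogz*. *Hdgfl2* was called in the 16 fits that tested it, from -5.62 to -4.86; at least 10 reads in every mouse leaves it out by construction. The count of all genes called was 2 as reported, 21 with DESeq2, 29 with edgeR's likelihood ratio test, 41 with no filter on low counts, 1 with at least 10 reads in every mouse, 1 with the replicate block and 8 with each library's *Rn45s* share in the model. It ran from 2 to 7 when each mouse was left out. For these counts and turns the cause was not tested. With 51 to 78 reads per mouse, *Cdca7l* had the least precise value of the 5.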

Other observations

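For each partner the 2 genes of at least 20 CPM with the most similar log2 level over the 7 mice were *Kpnb1* and *Lrpprc* for *Med1*, *Cbfa2t3* and *Peak1* for *Dbf4*, *Rab38* and *Cpne1* for *Iws1*, *Cep63* and *Cnot3* for *Pogz*, and *Tmem222* and *Klhdc3* for *Cdca7l*. These are the highest of at least 6664 genes compared across 7 libraries that share their scaling, so the likeness is a description with no test.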
